A study of Mus musculus with 6 samples.

Results

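The calcium channel gene Cacna1c gave rise to 8 of the 3869 circular RNAs (circRNAs) listed for cultured mouse brown preadipocytes. They are all rows that lie wholly inside a window drawn around the gene on the minus strand of chromosome 6 of the mouse genome build mm9, and they run from 118726435 to 119019207. No minus-strand row crossed an edge of this window and no plus-strand row lay within it. The nearest minus-strand circRNAs outside lay 2638.2 kb below the lowest member start and 755.2 kb above the highest member end. The gene was picked with earlier results of the same table in view, in which several of these circRNAs and their sum were lower on day 8 than on day 0. That contrast is therefore described here and not tested.

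The cells came from the stromal vascular fraction of fat that the labels name inguinal BAT, taken from C57BL/6 mice 6 weeks old. There were 6 libraries, 2 for each of 3 days. The day 0 group was proliferating cells in growth medium, without inducing agents. The day 4 group had spent 4 days in medium with insulin, dexamethasone and 3-isobutyl-methylxanthine, and the day 8 group another 4 days with insulin and the thyroid hormone T3. Nothing in the labels tells whether the replicates were separate cultures or animals, so p-values measure the spread between these libraries, which may be technical. The identity of the cells was not checked against marker genes, since the table holds circRNAs without host names. The libraries held 40384 to 45733 inferred back-splice reads on the listed circRNAs.

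A circRNA forms when the spliceosome joins the downstream end of an exon, a splice donor, back to the upstream end of the same or an earlier exon, a splice acceptor. The closed ring has no free ends and resists the enzymes that degrade linear RNA, and reads that cross this back-splice junction count it. Cacna1c encodes the pore-forming subunit of an L-type voltage-gated calcium channel, which opens on depolarization and lets calcium into the cell. It is best known from heart, smooth muscle and neurons, and calcium inside the cell is a known regulator of fat cell differentiation. The linear Cacna1c transcript was not measured here, because linear RNA had been removed before library construction.

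The host gene was checked by lengths alone, since the annotation used is of another build (GENCODE M21, GRCm38) than the table. The distance between the joined ends of mmu_circ_0001511 was 4915 bp, exactly the distance from the start of exon 2 to the end of exon 3 in the model Cacna1c-201. That of mmu_circ_0012990 was 3908 bp, the distance from the start of exon 4 to the end of exon 5. Their acceptors lay 277191 bp apart in the table, as do the starts of exons 2 and 4 in the model. Of 1522 genes on that chromosome and strand, Cacna1c was the 1 gene whose exons gave both lengths and the distance between them. The first pair of exons occurred in 18 of 27 Cacna1c transcript models and the second in 21 of 27. The other 6 circRNAs matched no distance between 2 annotated Cacna1c exon ends, which leaves at least 1 end of each outside this annotation, unless the builds differ in length there.

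The exons of the matched circRNAs are wholly coding. Their sequences are shown because they hold the leading circRNA and the one that lies apart, and they give what the rings would hold if every intron between the joined ends were removed. Such a ring is an inference from exon lengths, because the table gives only the joined ends. The sequences are from the GENCODE transcript Cacna1c-201, 5′ to 3′, with 140 bases on either side of the back-splice junction. The capitals are the 12 bases before and the 12 after the join, where a read tells the ring from the linear message. For mmu_circ_0001511 the last 34 bases of exon 2 and all 106 of exon 3 are followed by the first 140 of exon 2, and for mmu_circ_0012990 the whole of exon 5 by the whole of exon 4.
mmu_circ_0001511: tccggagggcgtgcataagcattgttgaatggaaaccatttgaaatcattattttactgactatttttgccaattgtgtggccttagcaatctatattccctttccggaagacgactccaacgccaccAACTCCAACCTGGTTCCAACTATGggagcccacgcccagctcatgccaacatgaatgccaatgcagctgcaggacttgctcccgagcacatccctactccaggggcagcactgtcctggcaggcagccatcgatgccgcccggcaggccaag
mmu_circ_0012990: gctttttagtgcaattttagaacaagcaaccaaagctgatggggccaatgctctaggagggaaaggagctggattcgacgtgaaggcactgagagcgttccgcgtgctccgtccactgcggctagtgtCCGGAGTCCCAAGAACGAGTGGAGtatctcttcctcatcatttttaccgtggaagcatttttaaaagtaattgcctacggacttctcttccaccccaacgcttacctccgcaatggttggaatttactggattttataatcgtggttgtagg
The ring of exons 2 and 3 would have 428 bases with 56.3% G and C. That of exons 4 and 5 would have 280 bases with 48.2% G and C. Neither length is a multiple of 3, with a remainder of 2 bases for the first and 1 for the second, so the reading frame of the linear message would shift at the junction.

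Most of the circRNAs shared 1 acceptor. Of the 8, 5 used the one at the start of exon 2 (position 119007533), joined to donors 4.915, 8.477, 12.405, 52.478 and 54.939 kb downstream. Among all listed circRNAs, 8 of 3152 acceptors (0.254%) were used by 5 or more circRNAs, and the highest number at 1 acceptor was 7. A member of another kind, mmu_circ_0012998 (119002619 to 119019207), kept the exon 3 donor of mmu_circ_0001511 but used an acceptor 11674 bp upstream of exon 2. The shortest, mmu_circ_0012992 (118952595 to 118955099), shared its donor with mmu_circ_0012993. Its acceptor lay so close to the donor of mmu_circ_0012995 that the 2 ends enclose 44 bases. All these ends lie upstream of exon 4, and the 4 donors past exon 3 fall within what the model gives as intron 3, its longest at 272.276 kb. The remaining circRNA, mmu_circ_0012990 (118726435 to 118730342), lay 222.253 kb further downstream and shared no end. Of the 8 members, 7 shared an end with another row, against 48.9% of all listed circRNAs. The latter include circRNAs that overlap no other row and so cannot share an end. All 8 had an identifier in the catalogue circBase, against 63.1% of the table. All 8 also had 10 or more reads in 2 or more libraries, as did 1368 of the 3869 listed circRNAs. The share in circBase among those 1368 was not computed.

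**Figure D1:**
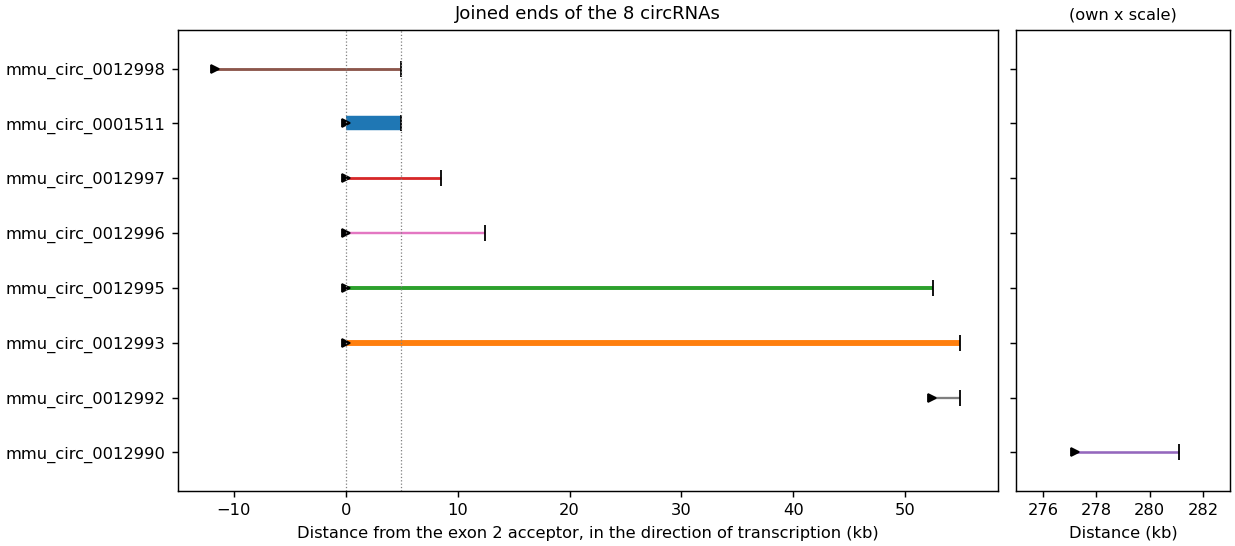
Joined ends of the 8 Cacna1c circRNAs, drawn as distance in kb from the exon 2 acceptor in the direction of transcription. Triangles are acceptors, ticks are donors, line width grows with the mean CPM on day 0, dotted lines mark the ends of mmu_circ_0001511, and the right panel has its own x scale. The 5 lines that start at 0 share the exon 2 acceptor.

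Values are in CPM, counts per 1000000 reads on all listed circRNAs of a library. In CPM, 1 read was worth 21.9 to 24.8. The summed CPM of the 8 circRNAs was 16683 and 15303 in the day 0 libraries, 6188 and 9261 on day 4, and 5488 and 4311 on day 8. Both day 0 libraries lay above all 4 later ones, and the day 4 libraries lay above those of day 8. In means this was 15993 ± 976 CPM on day 0, 7725 ± 2173 on day 4 and 4899 ± 832 on day 8 (SD, n = 2). The sum was thus 2.07 times higher on day 0 than on day 4, and 3.26 times higher than on day 8, the contrast that led to the choice of the gene. On day 0 it was the highest of 2510 summed loci. The other loci are groups of overlapping circRNAs on a strand, whereas the Cacna1c sum also holds mmu_circ_0012990, which overlaps no other member. The rank of the 7 overlapping members alone was not computed. The sum of all 8 ranked 14 of 2510 on day 4 and 20 of 2510 on day 8. In such bulk samples, fewer cells that make a circRNA and less of it per cell cannot be told apart. As CPM is relative to the listed circRNAs, a rise of other circRNAs cannot be told apart from either. The reads behind these sums were 719 and 632, then 283 and 374, then 224 and 182.

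From day 0 to day 4 the sum fell by 1.07 on the log2 scale (SE 0.23, limma adjusted p = 0.0477), when fitted with all 2510 loci on log2(CPM + 43.7). Called means an adjusted p under 0.05, and 4.14% of loci were called lower in this comparison. The call ended with another scaling (0.0641 and 0.0678), smaller pseudocounts (0.0717 and 0.0771), the replicate number as a block (0.0693), or any 1 of the 6 libraries left out (0.0685 to 0.272). The 7 circRNAs other than mmu_circ_0001511, summed alone, had a log2 fold change of -1.06 that was not called (limma adjusted p = 0.128). From day 4 to day 8 the log2 fold change of the sum was -0.63 (SE 0.23) and was not called (limma adjusted p = 0.170, with 3.51% of loci called lower). Both comparisons share libraries with the contrast by which the gene was chosen. Among the 218 loci with a mean of at least 1000 CPM, 11 had a lower log2 fold change than Cacna1c from day 0 to day 4, and 38 from day 4 to day 8. The median of these loci was 0.11 and -0.05.

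**Figure D2:**
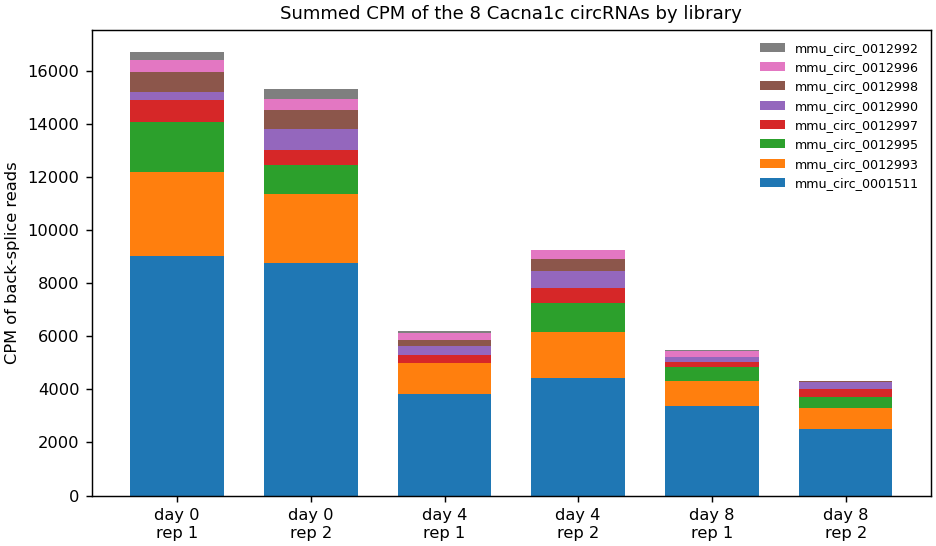
Summed CPM of the 8 Cacna1c circRNAs in each library, stacked by circRNA. The day 0 bars reach 16683 and 15303 CPM and the day 8 bars 5488 and 4311 CPM, with mmu_circ_0001511 the largest part of every bar.

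**Figure D3:**
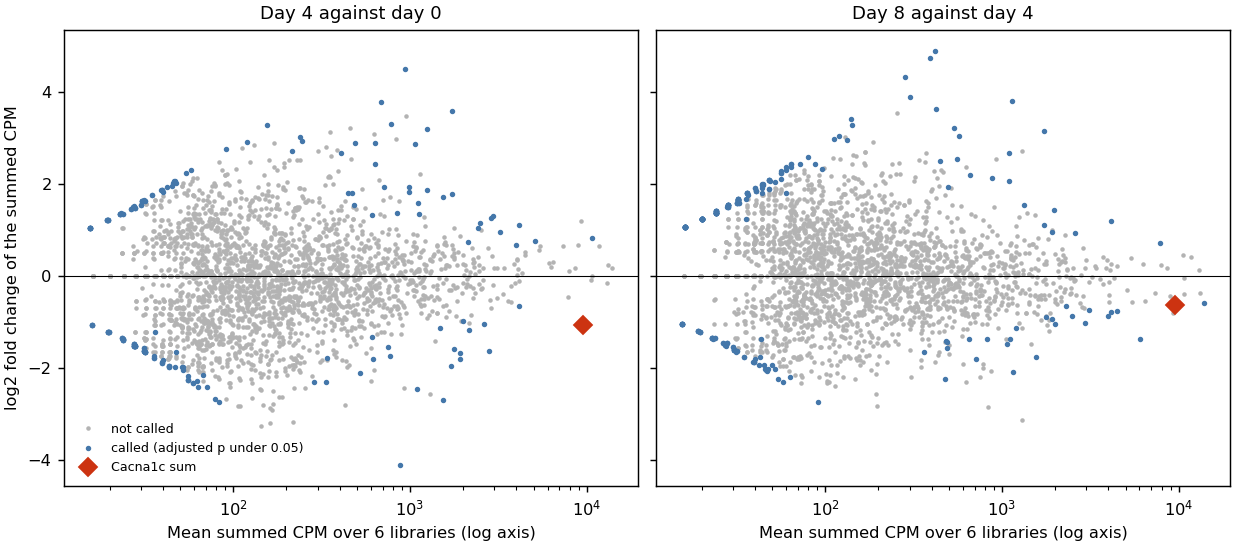
Log2 fold change of the summed CPM against mean CPM (log axis) for 2510 loci, for day 4 against day 0 and day 8 against day 4. Blue points were called by limma, and the red diamond is the Cacna1c sum, at -1.07 (called) and -0.63 (not called).

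The leading circRNA was mmu_circ_0001511 (119002619 to 119007533), the exon 2 to 3 product, with the highest mean of the 8. It had 9026 and 8765 CPM on day 0, 3827 and 4432 on day 4, and 3356 and 2511 on day 8. The 3 days did not overlap. In means it had 8896 ± 184, 4130 ± 428 and 2934 ± 598 CPM (SD, n = 2). It ranked 5 of the 3869 circRNAs in both day 0 libraries, 26 and 19 on day 4, and 31 and 40 on day 8. From day 0 to day 4 it fell by 1.10 on the log2 scale (SE 0.19, limma adjusted p = 0.0211). It was the only 1 of the 8 members called lower in that comparison, where 4.26% of all circRNAs were called lower. It was not called without any 1 of the 6 libraries (0.0692 to 0.184), while the other 7 alternatives kept the call (highest adjusted p 0.0372). Its log2 fold change from day 4 to day 8 was -0.50 (SE 0.19, limma adjusted p = 0.210). As for the sum, both steps of every member share libraries with the contrast by which the gene was chosen. Their p-values are thus no independent support for a fall.

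The 2 longest members, both over 50 kb, came next. The circRNA mmu_circ_0012993 (118952595 to 119007533) joined the exon 2 acceptor to the farthest donor. It had 3156 and 2591 CPM on day 0, 1159 and 1733 on day 4, and 955 and 782 on day 8. Again the days did not overlap, yet neither step was called (log2 fold change -0.99 with limma adjusted p = 0.0826, then -0.69 with 0.200). Of the 218 circRNAs in the table that span 50 kb or more, 5.63% of all, it had the rank 3 by mean CPM. Relative to the reads of the leading circRNA, its own stood at 35.0% and 29.6% on day 0, 30.3% and 39.1% on day 4, and 28.5% and 31.1% on day 8.

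Its neighbour mmu_circ_0012995 (118955056 to 119007533) was the least even between replicates. It had 1879 and 1090 CPM on day 0, 0 and 1090 on day 4, and 539 and 403 on day 8. The day 4 libraries held 0 and 44 reads, although the first of them held 53 reads of mmu_circ_0012993 and 175 of the leading circRNA. A listed 0 may hide 1 read, as no value of 1 read occurs in the table. Without day 4 replicate 1 its log2 fold change from day 4 to day 8 went from 1.20 to -1.15, and neither was called (limma adjusted p = 0.695 and 0.271). Without day 4 replicate 2, which leaves day 4 at 0, it was called in both steps, from day 0 to day 4 at -5.08 (0.0180) and from day 4 to day 8 at 3.54 (0.0389).

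The other 2 products of the exon 2 acceptor ended at nearer donors. The circRNA mmu_circ_0012997 (118999057 to 119007533) had 812 and 581 CPM on day 0, 306 and 570 on day 4, and 171 and 332 on day 8. Days 4 and 8 overlapped. The circRNA mmu_circ_0012996 (118995129 to 119007533) had 441 and 412 CPM on day 0, 262 and 371 on day 4, and 220 and 0 on day 8. Neither was called in either step by limma (adjusted p = 0.334 to 0.859), except that mmu_circ_0012996 was called from day 4 to day 8 without day 8 replicate 1 (0.0373), which leaves the library at 0.

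The circRNA with the upstream acceptor, mmu_circ_0012998, had few reads on day 8, as did mmu_circ_0012992. It had 742 and 726 CPM on day 0, 219 and 446 on day 4, and 0 and 47.4 on day 8, from 32 and 30, 10 and 18, and 0 and 2 reads. From day 4 to day 8 it fell by 2.51 on the log2 scale (SE 0.56, limma adjusted p = 0.0470). It was the only 1 of the 8 called lower in this step, against 3.54% of all circRNAs. This circRNA is in the table through days 0 and 4 and has a day 8 library at 0, so its listing favours a fall here. The step also uses the day 8 libraries of the contrast by which the gene was chosen. The p-value is therefore no independent support for a fall. The call ended under 12 of 13 alternatives, among them each library left out in turn (0.0780 to 0.235) and a requirement of 10 or more reads in 2 or more libraries (0.113). From day 0 to day 4 its log2 fold change was -1.12 (limma adjusted p = 0.322).

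The shortest member, mmu_circ_0012992, had 302 and 363 CPM on day 0, 87.5 and 0 on day 4, and 49.0 and 0 on day 8. Its reads were 13 and 15 on day 0 and at most 4 in any later library. Its log2 fold changes were -2.31 and -0.25, neither called (limma adjusted p = 0.186 and 0.938). The downstream exon 4 to 5 product, mmu_circ_0012990, had 325 and 775 CPM on day 0, 328 and 619 on day 4, and 196 and 237 on day 8. The ranges of days 0 and 4 overlapped almost fully, and the log2 fold change between them was -0.15 (limma adjusted p = 0.938). Between days 4 and 8 it was -0.94 (0.383).

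The order of the days was counted over the members as a description, since they share a gene, libraries and splice sites and are not independent. The gene was also chosen for values lower on day 8 than on day 0. That choice favours falls in both steps, so setting the counts beside the shares of all circRNAs is no test. Of the 8, mmu_circ_0012992 is in the table through day 0 alone, the only day on which both its libraries were above 0. Each later day thus has a library of it at 0 by definition, so it is left out of the next counts. From day 0 to day 4, 6 of the other 7 had both later libraries below both earlier ones, against 24.5% of all circRNAs. For mmu_circ_0012995 and mmu_circ_0012997 the gap was less than the worth of 1 read, which leaves 4 of 7 by a wider gap. The share of all circRNAs at that wider gap was not computed. All shares given here count any gap and keep rows listed through 1 day alone, so they are not on the same footing as the member counts. A lower mean was seen for 7 of these 7, against 49.1%. In the step from day 4 to day 8, 5 of 7 did not overlap, against 22.0%, and 7 of 7 had a lower mean, against 45.2%. These include mmu_circ_0012996 and mmu_circ_0012998, which are listed through days 0 and 4 and have a day 8 library at 0. Over these 7 the median log2 fold change was -0.99 from day 0 to day 4, where that of the table was 0.00. The next step had -0.70, where that of the table was 0.04, with 6 of 7 below 0. All 8 were above 0 in both day 0 libraries and all had 10 or more reads in 2 or more libraries. For mmu_circ_0012992 those 2 were again the day 0 libraries.

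**Figure D4:**
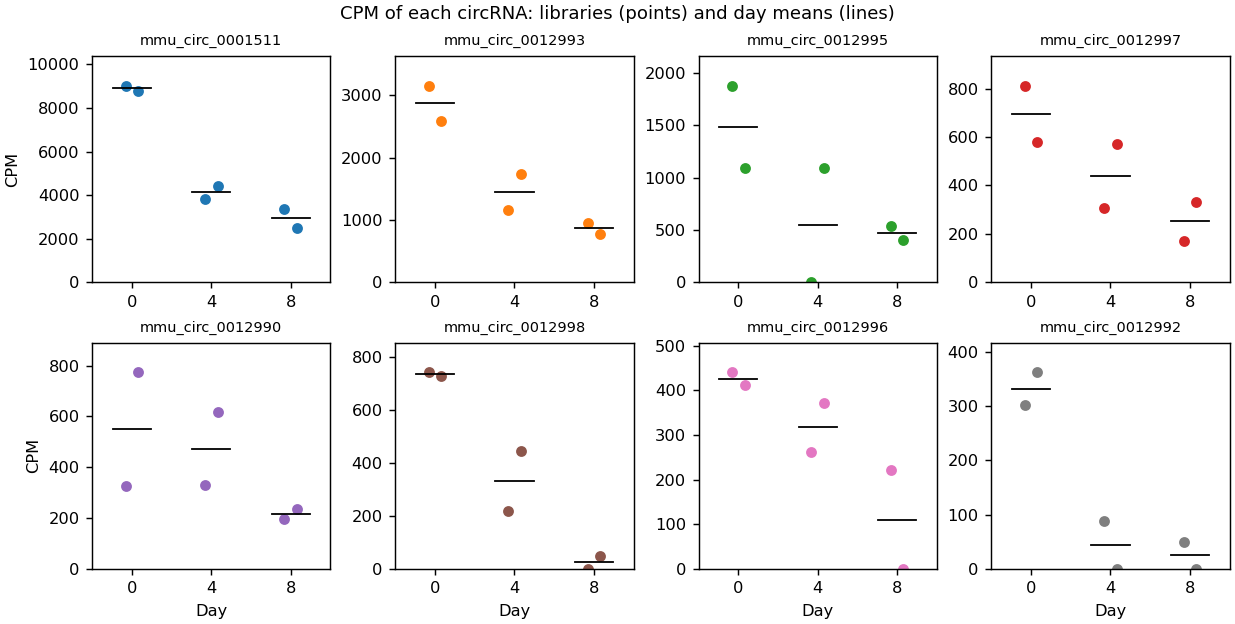
CPM of each Cacna1c circRNA by day, with libraries as points, day means as lines and a separate y axis from 0 in each panel. Days do not overlap for mmu_circ_0001511, mmu_circ_0012993, mmu_circ_0012996 and mmu_circ_0012998. Each of the latter pair has a day 8 library at 0. Days 0 and 4 overlap for mmu_circ_0012990, and mmu_circ_0012995 has 0 and 1090 CPM on day 4.

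The make-up of the sum was described by shares of its reads. The leading circRNA held 54.1% and 57.3% of the Cacna1c reads on day 0, 61.8% and 47.9% on day 4, and 61.2% and 58.2% on day 8. In means the share was 55.7% ± 2.25, 54.8% ± 9.88 and 59.7% ± 2.06 (SD, n = 2), and the day 4 libraries lay outside the range of the other 4 on both sides. The 2 day 4 libraries differed more than the days, with exact (Clopper-Pearson) 95% intervals of 55.9% to 67.5% and 42.7% to 53.1%. The first of them is the library with mmu_circ_0012995 listed at 0. Intervals cover counting error only. An exact permutation test on 2 against 2 libraries cannot go below p = 0.33 and was not run. The exon 2 acceptor took 91.8% and 87.8% of the reads on day 0, 89.8% and 88.5% on day 4, and 95.5% and 93.4% on day 8. Of the reads at this acceptor, donors past exon 3 took 37.9% ± 4.44 on day 0, 38.5% ± 10.5 on day 4 and 36.8% ± 1.18 on day 8 (SD, n = 2).

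The share of mmu_circ_0012998, chosen with its values known, was lower on day 8. It held 4.45% and 4.75% of the Cacna1c reads on day 0, 3.53% and 4.81% on day 4, and 0% and 1.10% on day 8. The exact 95% interval of the lowest earlier value ran from 1.71% to 6.40%, and that of the higher day 8 value from 0.133% to 3.91%, so the intervals of these 2 libraries overlap. In the day 8 library at 0, a count of 0 of 224 reads has an exact upper end of 1.63%, and 3 reads of that total would be 1.34%. Both would be higher if the 0 hides 1 read. From day 0 to day 8 the mean shares of the other members went both ways. That of mmu_circ_0012992 was 2.09%, 0.71% and 0.45% on days 0, 4 and 8, and that of mmu_circ_0012996 was 2.67%, 4.13% and 2.01%. Those of mmu_circ_0012995, mmu_circ_0012997 and mmu_circ_0012990 were higher on day 8 than on day 0. Across the table, 26 loci held 7 or more circRNAs, and the leading one took 17.5% to 92.0% of the mean summed CPM (median 36.7%). For Cacna1c, with all 8 members taken as 1 locus, this was 55.8%, and 5 of these loci had a higher value.

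**Figure D5:**
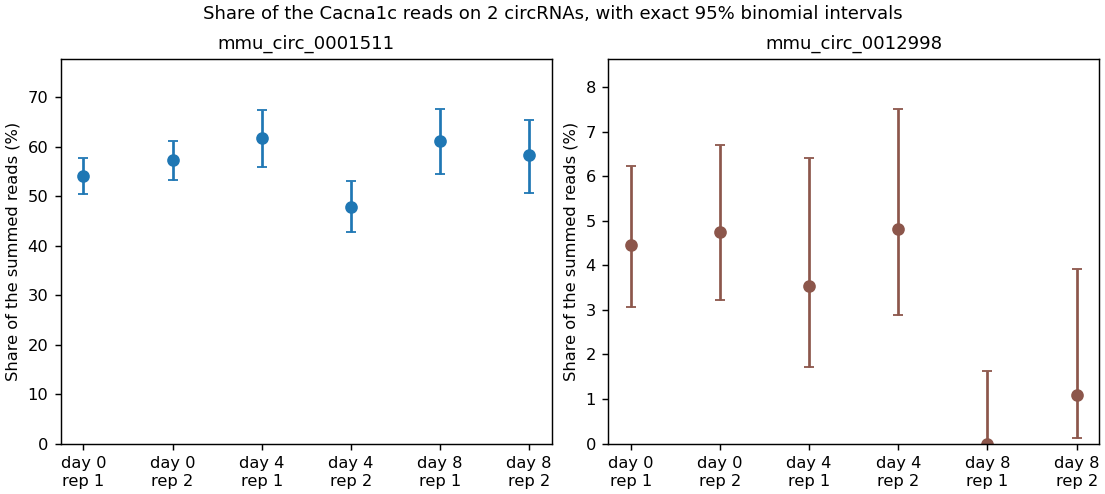
Share of the Cacna1c reads on mmu_circ_0001511 and mmu_circ_0012998 in each library, with exact 95% binomial intervals. The first lies between 47.9% and 61.8% with day 4 at both extremes, and the second is at 0% and 1.10% on day 8.

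The loci whose course over the 6 libraries was most like that of the Cacna1c sum were chosen by Pearson's r of log2(CPM + 43.7), among the 217 other loci with a mean of at least 1000 CPM. All share the same 6 libraries, and r is a description. The first lay on chromosome 1 (192695471 to 192723450, minus strand, mmu_circ_0000132 and mmu_circ_0000133, r = 0.968). It had 4267 ± 129 CPM on day 0, 2056 ± 279 on day 4 and 1516 ± 100.2 on day 8 (SD, n = 2). The second, on chromosome 8 (70406880 to 70432788, minus strand, 3 circRNAs, r = 0.965), had 2528 ± 294, 1732 ± 316 and 1277 ± 3.71 CPM. The third was mmu_circ_0011506 on chromosome 4 (16079064 to 16085577, minus strand, r = 0.958), with 3449 ± 734, 1711 ± 101 and 807 ± 36.2 CPM. All 3 had their highest values on day 0 and their lowest on day 8, as the Cacna1c sum did, at lower levels.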

How the data were processed

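RNA of 6 libraries was depleted of ribosomal and linear RNA, per the labels' protocols. FastQC 0.11.9, HISAT2 2.2.0 and mm9 were used, per the submitters' processing notes. The name of the circRNA caller was not given in the sources used here. A single table of CPM was deposited, with a total of 1000000 in every library, so a CPM is relative to the listed circRNAs alone. Each of the 3869 rows had a value above 0 in both libraries of some day, a selection that inflates differences of circRNAs with few reads. In each library 100% of values were whole multiples of 1 step (tolerance 0.01 of a step), the lowest non-zero value being 2 steps. A step was taken as 1 read. As values of 1 read are missing, no count model was run. Starts in the table count from 0 and were raised by 1.

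limma 3.58.1 (R 4.3.3) with a mean-variance trend was fitted to log2(CPM + 43.7), the smallest non-zero value, over all 6 libraries, without further scaling. P-values were adjusted by Benjamini-Hochberg over 3869 circRNAs, or over 2510 loci (rows joined by overlap on a strand, the Cacna1c window as 1). A minimum of 2 libraries above 0 left every row in. Fits without 1 library kept these features, and fits of 2 days were filtered on their own 4 libraries. The procedure was tested on simulated data, with changes larger than that of the Cacna1c sum. That test does not tell how well smaller changes are called. All 8 members are named. The calcium pathway genes listed for comparison and cell type markers were not analysed here, since no table pairs circRNAs with host genes. Members, lists and tests were chosen with earlier results of these data known. Same-numbered replicates did not deviate together (r = -0.014, -0.007 and -0.007 between days), and the labels give no pairing.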

Additional observations from a re-analysis of the deposited data

How the results depend on the processing

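The fall of the Cacna1c sum from day 0 to day 4 (-1.07 on the log2 scale, limma adjusted p = 0.0477) kept its direction in every fit run, and its call in 3 of 9 alternatives other than left-out libraries (a fit without the filter is the reported fit). By limma it was not called with trimmed mean of M values scaling (-0.98, adjusted p = 0.0641), median-of-ratios scaling (-1.01, 0.0678), pseudocounts of 1 (-1.08, 0.0717) and 0.1 CPM (-1.08, 0.0771), or without the leading circRNA (-1.06, 0.128). With the replicate number as a block it was -1.07 and the call was lost (0.0693); the block changed neither count of members called. With 1 library left out it was -1.36 to -0.78, with no call in the 6 fits, where a day with 1 library is assumed to vary like the others. From day 4 to day 8 the sum was never called. The count of members called lower from day 0 to day 4 was 1, and 0 to 1 with a library left out; without day 4 replicate 2 the member called was mmu_circ_0012995 and not mmu_circ_0001511. From day 4 to day 8 it was 1, and 0 with either scaling, either pseudocount, at least 10 reads in 2 libraries, or the 4 libraries alone, and 0 to 1 with a library left out. The leading share on day 8 was 62.5% of the 7 circRNAs that overlap the leading one, against 59.7% of all 8.

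Among members not called in the reported limma fit, signs turned when a library was left out. For mmu_circ_0012990 from day 0 to day 4 the log2 fold change ranged from -0.72 to 0.43, being above 0 when day 0 replicate 2 (0.43) or day 4 replicate 1 (0.27) was out. For mmu_circ_0012995 from day 4 to day 8 it ranged from -1.15 to 3.54, and for mmu_circ_0012992 from -1.04 to 0.54. The negative value of the former, and 0.54 of the latter, came when day 4 replicate 1 was out, and the latter was 0.29 when day 8 replicate 2 was out. Over all circRNAs, limma called 314 from day 0 to day 4 and 370 from day 4 to day 8. These were 50 and 14 with at least 10 reads in 2 libraries, and 528 and 610 in fits of 4 libraries. Of 2510 loci, 200 and 248 were called, 63 and 24 with that filter, 330 and 392 in fits of 4 libraries, and 157 from day 4 to day 8 without either day 4 library. The planned count-model tests were not run, because the table holds no value of 1 read. Depth limits the smaller members, since 5 of the 8 had under 50 reads in every library.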
